A study of Homo sapiens with 16 samples.

Results

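Histone deacetylases remove acetyl groups from lysines, and the 8 genes described here encode the class I enzymes HDAC1, HDAC2, HDAC3 and HDAC8 and the class IIa enzymes HDAC4, HDAC5, HDAC7 and HDAC9. They are 8 of the 19970 protein-coding genes that RefSeq annotates on chromosomes 1 to 22 and X of the human genome build GRCh38. The genes were taken by enzyme class, and the family was chosen by the deposited ChIP-seq peaks themselves, since some members have JARID2 peaks and none has an EZH2 or H3K27me3 peak. The peak counts at the 8 genes are therefore given as a description, with no test, beside the share of all protein-coding genes that meets the same rule. A gene-end peak is a peak that overlaps, by at least 1 bp, the 2 kb on either side of an annotated gene end. A whole-gene peak overlaps the gene or those end windows.

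Class I enzymes are mostly nuclear, and HDAC1 and HDAC2 are the catalytic subunits of the SIN3, NuRD, CoREST and MiDAC co-repressor complexes, while HDAC3 works in the NCOR/SMRT complex. HDAC8 acts without such a complex and deacetylates the cohesin subunit SMC3. Class IIa enzymes have weak catalytic activity of their own, bind MEF2 transcription factors, and shuttle between nucleus and cytoplasm under the control of 14-3-3 proteins; in liver, HDAC4, HDAC5 and HDAC7 are known for glucagon-responsive control of gluconeogenic genes. EZH2 is the methyltransferase of Polycomb repressive complex 2, H3K27me3 is the mark that it writes at silenced developmental genes, and JARID2 is an accessory subunit with affinity for DNA. Deacetylation and Polycomb methylation meet at lysine 27 of histone H3, which can carry either an acetyl or a methyl group.

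ChIP-seq, which sequences the DNA that comes down with a protein or histone mark, was made in untreated cells of 2 established liver lines, HepG2 from a hepatocellular carcinoma and THLE-2 from non-tumour epithelium that was immortalised. HepG2 has a JARID2 group, and THLE-2 has groups for JARID2, EZH2 and H3K27me3, each with 2 replicates that the series calls biological. Each immunoprecipitated (IP) library has an input library of the same line, which gives 16 samples and 8 peak lists. EZH2 and H3K27me3 of HepG2 were not analysed here, so the 2 lines can be set side by side for JARID2 alone. The protocol label of HepG2 JARID2 replicate 1 names a JARID2 antibody, and the labels of the other samples share a general sentence, so the target of a library is taken from its title. Peak lists hold no expression values, and the identity of the lines was not checked against marker genes.

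The IP libraries held 7.95 and 14.6 M filtered tags for HepG2 JARID2 replicates 1 and 2, 11.7 and 13.0 M for THLE-2 JARID2, 29.6 and 32.4 M for EZH2, and 39.0 and 38.1 M for H3K27me3. The authors deposited 15738 and 4090 HepG2 JARID2 peaks, 5356 and 5532 THLE-2 JARID2 peaks, 2112 and 3690 EZH2 peaks, and 46198 and 90524 H3K27me3 peaks. The shallowest library, HepG2 JARID2 replicate 1, thus had the longest JARID2 list, and the median false discovery rate that MACS gave its peaks was 1.29%, against 100% in replicate 2. In THLE-2 JARID2 that median was 15.81% and 44.23%, and in the 4 EZH2 and H3K27me3 lists it was 100%. The median JARID2 peak had 12 to 14 tags in the 4 lists, so most of these peaks rest on few reads. EZH2 peaks of both replicates lay at the ends of HOXD3, a homeobox gene (fold enrichment 15.12 and 13.16), and FOXA2, a liver transcription factor gene (10.71 and 7.7), and JARID2 peaks of both THLE-2 replicates lay at FOXA2 (13.84 and 7.36). H3K27me3 replicate 2 had peaks at both genes (16.33 and 5.88), but H3K27me3 replicate 1 had none at either, and no JARID2 list had one at HOXD3. Fold enrichment is the authors' ratio of IP tags over the local input background of a peak, and it ranks peaks only within a list.

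The 3 peaks that overlapped each other between libraries at any of the 8 genes lay at the start of HDAC2. The 250 bases before that start are shown first because they hold part of the members' most repeated JARID2 site. All 3 summits lay farther upstream than these bases. The stretch is chr6:113971149-113971398 on the minus strand, from RefSeq on GRCh38.p14, and capitals mark the 187 bases inside all 3 peaks, those of HepG2 replicate 1, HepG2 replicate 2 and THLE-2 replicate 2.
HDAC2: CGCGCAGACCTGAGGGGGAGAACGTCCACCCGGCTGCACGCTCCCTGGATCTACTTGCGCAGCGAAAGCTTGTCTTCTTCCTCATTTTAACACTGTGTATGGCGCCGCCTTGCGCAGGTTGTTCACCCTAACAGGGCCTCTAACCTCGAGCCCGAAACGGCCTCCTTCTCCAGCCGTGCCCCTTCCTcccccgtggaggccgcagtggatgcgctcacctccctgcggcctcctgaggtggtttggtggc
HDAC4 is shown because the whole stretch before its outermost start, chr2:239401650-239401899 on the minus strand, lay inside a peak of HepG2 JARID2 replicate 1, so all 250 bases are in capitals.
HDAC4: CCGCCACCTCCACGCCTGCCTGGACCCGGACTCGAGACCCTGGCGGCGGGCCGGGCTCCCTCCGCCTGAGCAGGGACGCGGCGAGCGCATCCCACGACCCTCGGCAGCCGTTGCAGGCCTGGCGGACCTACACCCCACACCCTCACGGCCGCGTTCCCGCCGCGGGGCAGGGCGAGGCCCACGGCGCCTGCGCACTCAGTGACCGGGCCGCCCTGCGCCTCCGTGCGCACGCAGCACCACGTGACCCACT
HDAC8 and HDAC3 are shown for contrast, in lower case because no base lay in a peak of any library. The HDAC8 stretch, chrX:72572844-72573093 on the minus strand, had JARID2 peaks farther upstream in both HepG2 replicates, and HDAC3, with chr5:141636850-141637099 on the minus strand, had no peak anywhere on the gene.
HDAC8: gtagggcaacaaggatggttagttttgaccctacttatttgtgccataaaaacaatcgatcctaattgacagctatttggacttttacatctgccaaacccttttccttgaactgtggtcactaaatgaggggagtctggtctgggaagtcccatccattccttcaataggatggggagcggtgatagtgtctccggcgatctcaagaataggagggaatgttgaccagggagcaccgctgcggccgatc
HDAC3: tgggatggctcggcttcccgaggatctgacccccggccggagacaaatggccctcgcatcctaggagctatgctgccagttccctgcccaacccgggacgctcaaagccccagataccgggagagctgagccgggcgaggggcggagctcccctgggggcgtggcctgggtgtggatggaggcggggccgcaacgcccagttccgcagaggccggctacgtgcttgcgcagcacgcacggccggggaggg

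These stretches differed in base composition. A start listed by RefSeq was at hand for 7 of the 8 genes, HDAC5 being the exception. HDAC4 and HDAC9 have 5 listed starts each, and only the outermost was read here. The values over all promoters include internal starts. The HDAC4 stretch was 76.8% G or C with 33 CG dinucleotides, that of HDAC9 75.2% with 32, that of HDAC7 75.6% with 28, that of HDAC1 71.6% with 21, that of HDAC3 70.8% with 22, and that of HDAC2 63.2% with 18. The HDAC8 stretch was the poorest of these, at 48% G or C with 7 CG dinucleotides. Over 22131 promoters of 15811 coding genes the medians were 62% and 16. The GC-rich stretches of HDAC4 and HDAC7 lay in a HepG2 JARID2 replicate 1 peak, while those of HDAC9, HDAC1 and HDAC3 had no base in a peak of any list. HDAC2, near the median of all promoters, had bases in 3 lists. Of all promoter windows, 13.2% overlapped a HepG2 JARID2 replicate 1 peak by at least 1 bp.

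5 short motifs were searched on both strands. GGGCGG, the core of a GC box, occurred 3 times before the HDAC1 start, 2 times before HDAC9 and once each before HDAC3 and HDAC4, and 53.7% of all promoters of that length hold it. GAGAG occurred 2 times at HDAC9 and once each at HDAC1, HDAC3 and HDAC7, against 55.0% of all promoters. CCAAT occurred once, at HDAC1, with 32.7% of all promoters holding it, and CACGTG once, at HDAC4, with 7.37%. Internal starts of HDAC4 and HDAC9, not counted here, also held motifs. For example, CCAAT stood 2 times before the HDAC9 start at 18495710, and GAGAG 3 times before the HDAC4 start at 239273627. TATAAA was in none of the 7 stretches and in 9.00% of all promoters. Neither the HDAC2 nor the HDAC8 stretch held any of these letters. The 3 HDAC2 summits lay 376 to 390 bp before the start, beyond the 250 bases searched. Motifs and composition of the most repeated JARID2 site were therefore read over part of it only.

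JARID2 peaks lay at the ends of 6 of the 8 genes in HepG2 replicate 1 (HDAC1, HDAC2, HDAC8, HDAC4, HDAC5 and HDAC7), a list in which 22.5% of all coding genes had one. HepG2 replicate 2 had gene-end peaks at 2, HDAC2 and HDAC8 (0.716% of coding genes). THLE-2 JARID2 replicate 1 had one at 1 gene, HDAC1 (4.21%), and replicate 2 at 1 gene, HDAC2 (4.38%). Both HepG2 replicates thus had a gene-end peak at 2 of the 8 genes, HDAC2 and HDAC8, both class I, and 0.165% of coding genes (33 genes) met that rule. Both THLE-2 JARID2 replicates had one at 0 of the 8, with 0.356% of coding genes (71 genes). No class IIa gene had a gene-end peak in both replicates of any group.

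Over whole genes the JARID2 lists touched more members. HepG2 replicate 1 had the same 6 genes (37.5% of coding genes), and replicate 2 had 3, HDAC2, HDAC8 and HDAC9 (6.92%). THLE-2 replicate 1 had 3, HDAC1, HDAC4 and HDAC9 (13.9%), and replicate 2 had 4, HDAC2, HDAC4, HDAC5 and HDAC9 (13.6%). Both replicates had a peak at HDAC2 and HDAC8 in HepG2 (4.13% of coding genes) and at HDAC4 and HDAC9 in THLE-2 (4.02%). In THLE-2 those peaks of replicates 1 and 2 did not overlap at either gene. HDAC3, the catalytic subunit of NCOR/SMRT and the shortest of the 8 genes, had no peak in any of the 8 lists.

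**Figure D1:**
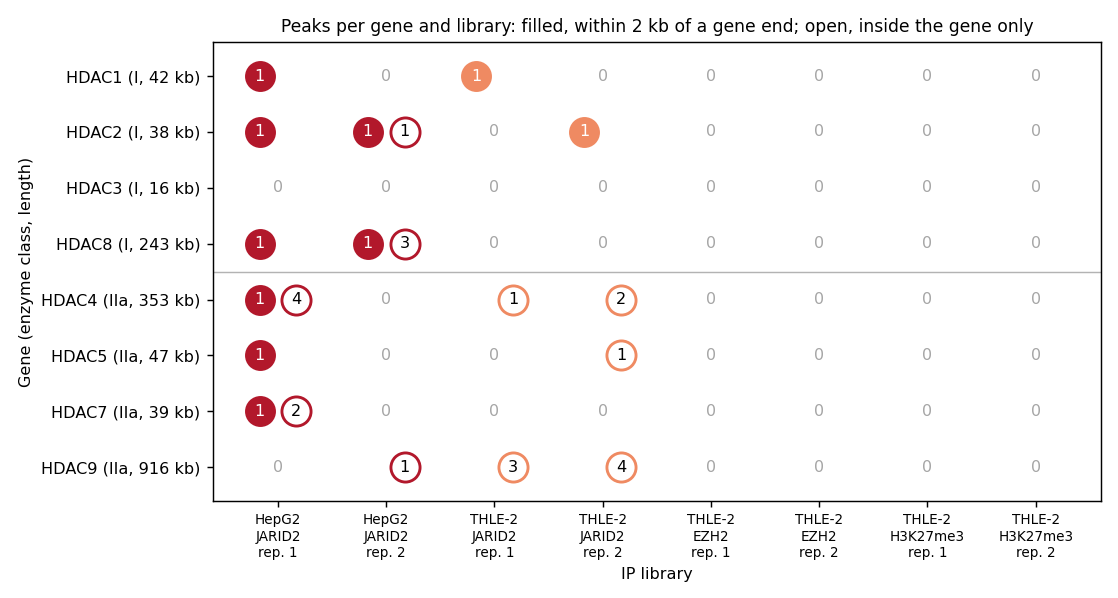
Number of deposited peaks at each gene (rows, with enzyme class and length) in each IP library (columns); filled circles are peaks within 2 kb of a gene end, open circles are peaks inside the gene only, and grey zeros mark no peak. All 32 peaks stand in the 4 JARID2 columns, 10 of them at a gene end, and the 4 EZH2 and H3K27me3 columns hold 0.

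In all, the 8 genes held 32 peaks, 12 and 7 in HepG2 JARID2 and 5 and 8 in THLE-2 JARID2, of which 10 were at a gene end and 22 in the body only. In the plot of counts by gene and library, peaks in both JARID2 replicates of a line stand only at HDAC2 and HDAC8 in HepG2 and at HDAC4 and HDAC9 in THLE-2. Those of HDAC4 and HDAC9 in THLE-2 were all in the gene body. Of 47 pairs of peaks from different libraries on the same gene, 3 overlapped, all at HDAC2. The member peaks ranged from 9 to 77 tags in HepG2 replicate 1, 13 to 29 in replicate 2, 12 to 16 in THLE-2 replicate 1 and 12 to 20 in replicate 2. By score, which is -10 times the log10 of the MACS p, 3, 2, 0 and 1 of them stood in the top 10% of their lists.

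HDAC2 (gene ID 3066, chr6:113933028-113971148, minus strand), the partner of HDAC1 in SIN3, NuRD, CoREST and MiDAC, had a JARID2 peak over or just before its start in 3 of the 4 JARID2 lists. In HepG2 replicate 1 the peak (113970897-113971727) had 33 tags, a fold enrichment of 18.24, a score of 191.62 and a false discovery rate of 0%, and it ranked 265 by fold and 193 by score of 15738. In HepG2 replicate 2 the peak (113971110-113972003) had 29 tags, a fold of 12.28 and a score of 85.45, and ranked 363 and 129 of 4090, with a false discovery rate of 100%. In THLE-2 replicate 2 the peak (113971212-113971839) had 20 tags, a fold of 10.04 and a score of 70.82, and ranked 1016 and 674 of 5532, with a false discovery rate of 42.28%. THLE-2 replicate 1 had no peak at HDAC2. Both HepG2 libraries and 1 of the 2 THLE-2 libraries therefore had a peak at this site.

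The 3 HDAC2 peaks agreed in position as well. Their summits lay 380 and 376 bp upstream of the start in HepG2 and 390 bp upstream in THLE-2 replicate 2, a range of 14 bp. They shared 516 bp, from 64 to 579 bp before the start, which includes the capitals of the printed HDAC2 sequence. The same bases lie within HDAC2-AS2, a long non-coding RNA gene that RefSeq places over the start. Of all coding genes, 57 (0.285%) had gene-end peaks in 3 or more of the 4 JARID2 lists, and HDAC2 was the 1 member among them. HDAC1 and HDAC8 had them in 2 lists, HDAC4, HDAC5 and HDAC7 in 1, and HDAC3 and HDAC9 in 0. A further HDAC2 peak in HepG2 replicate 2 (14 tags, fold 6.81) lay inside the gene, 2581 bp from its far end and so just outside the end window.

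HDAC8 (gene ID 55869, chrX:72329516-72572843, minus strand), the SMC3 deacetylase, had a peak upstream of its start in both HepG2 libraries and in neither THLE-2 library. The peak of HepG2 replicate 1 (72574601-72574933) had 9 tags, a fold of 12.8 and a score of 65.3, with its summit 1924 bp upstream. The peak of replicate 2 (72573459-72573959) had 16 tags, a fold of 8.26 and a score of 72.93, with its summit 968 bp upstream. The false discovery rate was 0.99% for the replicate 1 peak and 100% for that of replicate 2. By fold and score they ranked 3113 and 6142 of 15738 in replicate 1, and 3122 and 370 of 4090 in replicate 2. A gap of 641 bp separated the 2 peaks, so the 2 libraries called neighbouring stretches and not the same one, as the plot of start ends shows. HepG2 replicate 2 had 3 more HDAC8 peaks inside the gene, with folds of 10.6, 10.21 and 10.21 and 13 or 14 tags. Each had a false discovery rate of 100%. They lay within 14.7 kb of each other, 36.7 to 50.9 kb into the gene.

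HDAC1 (gene ID 3065, chr1:32292083-32333626, plus strand), which pairs with HDAC2 in the same complexes, had its JARID2 peaks at the far end of the gene and none at its start. The HepG2 replicate 1 peak (32335470-32336321; 26 tags, fold 11.71, score 109.32) began 1844 bp beyond the far end of HDAC1. It covered the RefSeq start of the neighbouring gene MARCKSL1, which encodes a MARCKS-like actin-binding protein, and part of a long non-coding RNA gene. The THLE-2 replicate 1 peak (32331280-32332010; 16 tags, fold 7.9, score 57.14) lay inside HDAC1 and also within 2 kb of the far end of MARCKSL1. Replicate 2 had no HDAC1 peak in either line. HDAC1 therefore counted at a gene end in 2 lists without a peak near its own start.

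The peaks nearest the edge of the 2 kb window were those of HDAC1 at 1844 bp (fold 11.71) and 1616 bp (fold 7.9) and of HDAC8 at 1758 bp (fold 12.8). Just outside lay the HDAC2 peak at 2581 bp (fold 6.81) and an HDAC8 peak of HepG2 replicate 1 at 6951 bp (fold 8.53). The nearest H3K27me3 peaks outside a window stood 8043 bp (fold 6.39, replicate 2) and 9092 bp (fold 5.33, replicate 1) from the start of HDAC4.

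HDAC4 (gene ID 9759, chr2:239048168-239401649, minus strand), the class IIa enzyme best known from muscle and bone, had 5 peaks in HepG2 replicate 1, 0 in HepG2 replicate 2, and 1 and 2 in THLE-2 replicates 1 and 2. The HepG2 peak at its outermost start (239400039-239402264) had 53 tags, a fold of 6.71 and a score of 107.64, with the summit 186 bp upstream, and it also covered the start of the antisense RNA gene HDAC4-AS1. The other 4 HepG2 peaks lay in the body with 12 to 31 tags and folds of 6.74 to 10.89. The THLE-2 replicate 1 peak (239273370-239274077; 16 tags, fold 8.53, score 70.48) covered an internal RefSeq start of HDAC4 at position 239273627. A HepG2 replicate 1 body peak (239275363-239276229; 31 tags, fold 6.74) began 1285 bp beyond it, so the lines had neighbouring peaks there that did not overlap. The THLE-2 replicate 2 peaks had 12 tags each, with folds of 7.06 and 8.31.

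HDAC5 (gene ID 10014, chr17:44076753-44123641), a close relative of HDAC4 and a signal-responsive repressor of MEF2 targets, had 1 peak at its higher-coordinate end in HepG2 replicate 1 (44122902-44123721; 21 tags, fold 7.82, score 65.85). THLE-2 replicate 2 had 1 peak in the gene body (44088110-44088654; 15 tags, fold 7.76), and the other 2 JARID2 lists had none. HDAC7 (gene ID 51564, chr12:47782722-47821344, minus strand), which is known for roles in endothelium and thymocytes, had 3 peaks, all in HepG2 replicate 1. The peak over its RefSeq-listed start at 47819903 (47818153-47820551) was 2399 bp wide with 77 tags, the most of any member peak, but its fold was 6.77. The 2 body peaks had 20 tags each and folds of 6.1 and 6.85.

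HDAC9 (gene ID 9734, chr7:18086825-19002416, plus strand), the longest of the 8 genes and a class IIa enzyme whose locus is tied to vascular disease, had no gene-end peak in any list. It had 0 and 1 body peaks in HepG2 and 3 and 4 in THLE-2. The HepG2 replicate 2 peak (18903633-18904144) had 15 tags and a fold of 10.21. In THLE-2 replicate 1 the 3 peaks had 12, 12 and 16 tags and folds of 10.38, 8.53 and 6.77. In THLE-2 replicate 2 the 4 peaks had 14, 18, 18 and 18 tags and folds of 7.79, 10.39, 5.44 and 8.18, and the one at 18372273-18373000 ranked 288 of 5532 by score. None of the 8 HDAC9 peaks overlapped another.

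The genes differ 57.3 times in length, and longer genes more often held a peak in these lists. Of 1396 coding genes over 200 kb, the class of HDAC8, HDAC4 and HDAC9, 29.9% had a whole-gene JARID2 peak in both HepG2 replicates and 28.1% in both THLE-2 replicates, against 0.518% and 0.890% of the 13712 genes under 50 kb. HDAC2 is 38.1 kb long and belongs to the short class. Per 100 kb, the 8 genes together had 0.695 and 0.406 JARID2 peaks in HepG2 replicates 1 and 2, against 0.850 and 0.140 over all coding genes. In THLE-2 they had 0.290 and 0.464, against 0.250 and 0.247. HDAC9 alone makes up 920 of their 1726 kb, end windows included. Genes of the class over 200 kb had a density of 0.399 for HepG2 replicate 1 and 0.163 for its replicate 2. For the THLE-2 lists that density was 0.172 and 0.198. The 8 genes together were thus below all coding genes in HepG2 replicate 1, but above the long genes in every JARID2 list. These differences were not tested. HDAC7 stood highest in HepG2 replicate 1, at 7.04 peaks per 100 kb, and HDAC2 in HepG2 replicate 2, at 4.75.

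**Figure D2:**
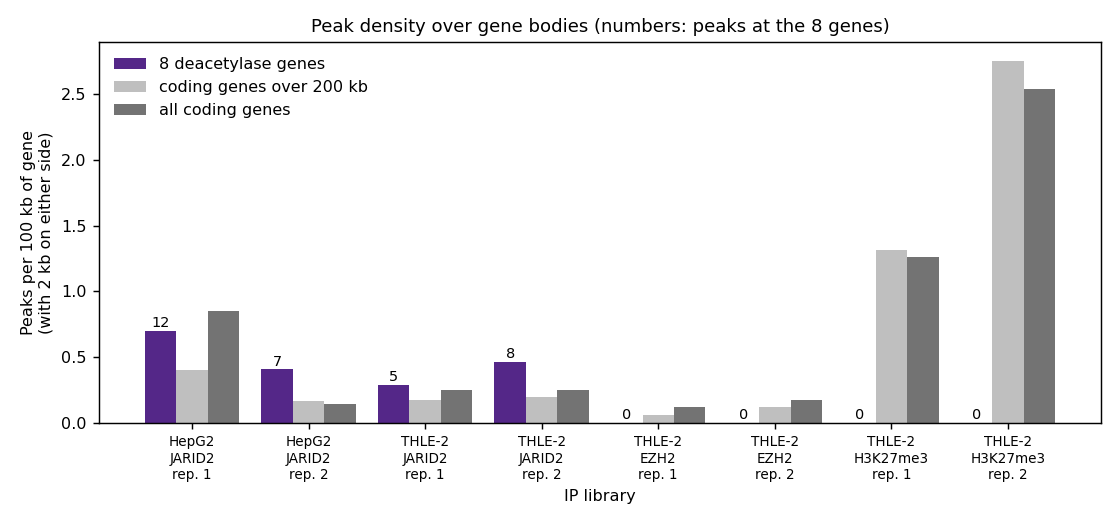
Peaks per 100 kb of gene, with 2 kb on either side, in each IP library: the 8 deacetylase genes together (purple), coding genes over 200 kb (light grey) and all coding genes (dark grey), with the number of peaks at the 8 genes above their bars. The purple bars are at 0 in the 4 EZH2 and H3K27me3 libraries, where all coding genes reach 2.54 peaks per 100 kb in H3K27me3 replicate 2.

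EZH2 and H3K27me3 peaks were absent from all 8 genes in THLE-2. At gene ends, EZH2 replicates 1 and 2 had 0 and 0 of the 8 genes, with 5.92% and 6.54% of coding genes, and 0 in both replicates, with 4.88%. H3K27me3 replicates 1 and 2 likewise had 0 and 0, with 7.70% and 19.1%, and 0 in both, with 6.75%. Over whole genes the counts were again 0 of 8 in each list, beside 7.29% and 9.74% of coding genes for EZH2 and 5.84% in both replicates. For H3K27me3 the whole-gene shares of coding genes were 15.2% and 24.9%, and 14.4% in both replicates. A gene with no whole-gene peak in any of these 4 lists was common, at 71.9% of coding genes. No peak here means that MACS called none, which does not show the gene to be free of the protein or mark.

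Such a lack of peaks is less common among long genes. Of the 1396 coding genes over 200 kb, 525 (37.6%) had no peak in the 4 EZH2 and H3K27me3 lists, among them HDAC8, HDAC4 and HDAC9, against 77.7% of genes under 50 kb. Among the 86 genes at least as long as HDAC9, itself included, 9 (10.5%) had none. At the pooled density of all coding genes, the summed length of the 8 genes would hold 2.11 and 3.05 EZH2 peaks and 21.8 and 43.9 H3K27me3 peaks in replicates 1 and 2, and HDAC9 alone 11.6 and 23.4 H3K27me3 peaks. These values scale the genome-wide density to the genes' length and carry no error, since H3K27me3 peaks cluster in broad domains. Density also differed with gene length. Per 100 kb, coding genes over 200 kb had 0.0606 and 0.122 EZH2 peaks, against 0.122 and 0.177 over all coding genes. For H3K27me3 they had 1.32 and 2.76, against 1.27 and 2.54. The family was chosen for having no EZH2 or H3K27me3 peak, so setting its count against any of these values tests nothing.

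**Figure D3:**
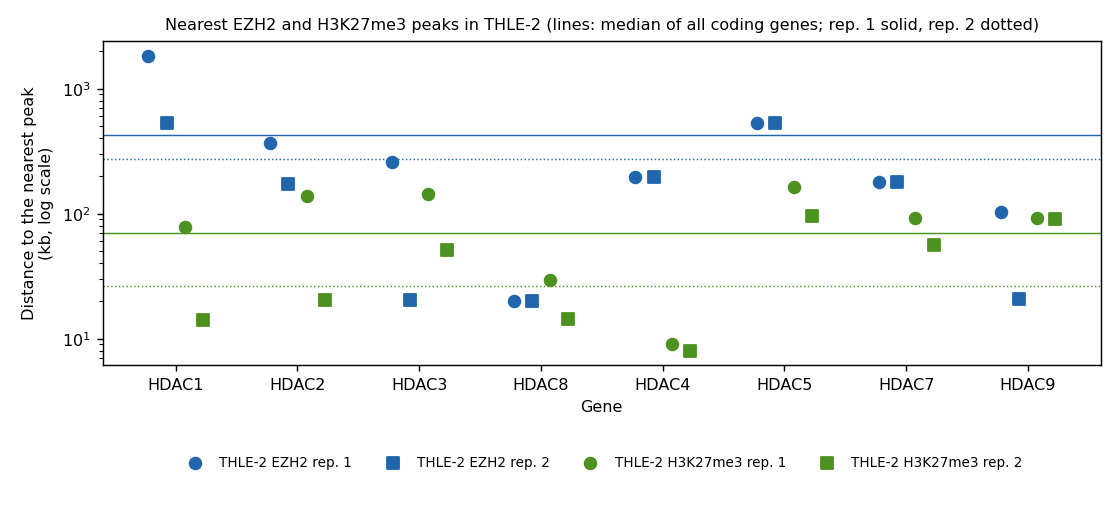
Distance in kb (log axis) from each gene to the nearest EZH2 peak (blue) and H3K27me3 peak (green) in THLE-2, circles for replicate 1 and squares for replicate 2, with lines at the medians over all coding genes. HDAC8 has the shortest distance to an EZH2 peak and HDAC4 to an H3K27me3 peak, and HDAC1 stands farthest from an EZH2 peak in replicates 1 and 2.

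The nearest EZH2 peak lay 20.1 kb from HDAC8 in both replicates, 198 kb from HDAC4 in both, 179 kb from HDAC7 in both, 532 kb from HDAC5 in both, and 1829 and 536 kb from HDAC1. For HDAC2 these distances were 370 and 172 kb, for HDAC3 259 and 20.4 kb, and for HDAC9 103 and 20.8 kb. The members' median was 229 and 176 kb, against 427 and 274 kb over all coding genes. The nearest H3K27me3 peak lay 9.09 and 8.04 kb from HDAC4, 29.2 and 14.5 kb from HDAC8, and 164 and 96.7 kb from HDAC5, the nearest and farthest being HDAC4 and HDAC5 in both replicates. The members' H3K27me3 median was 91.8 and 35.8 kb, against 69.5 and 26.2 kb over all coding genes. As the plot of nearest peaks shows, members lie on both sides of these medians.

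EZH2 and H3K27me3 peaks of both replicates lay within 300 kb of the 3 longest members. None lay inside these genes, which follows from how the family was chosen. Over all coding genes the median distance was 427 and 274 kb to an EZH2 peak and 69.5 and 26.2 kb to an H3K27me3 peak. The neighbours of these 3 members were named after the values were seen. TWIST1, a mesodermal transcription factor gene (chr7:19113047-19117636), lies 111 kb beyond HDAC9, whose introns are known to hold TWIST1 enhancers. It had EZH2 peaks in both replicates (fold 8.21 and 7.84) and an H3K27me3 peak in replicate 2 (fold 7.7), with no H3K27me3 peak in replicate 1. TWIST2, its paralog (chr2:238848085-238910534), lies 138 kb beyond the far end of HDAC4 and had EZH2 peaks in both replicates (fold 6.92 and 4.64) and an H3K27me3 peak at an end in replicate 2 (fold 4.74). CITED1, a transcriptional co-regulator gene (chrX:72301646-72307157), lies 22.4 kb beyond HDAC8 and had EZH2 peaks (fold 7.17 and 5.05) and H3K27me3 peaks (fold 10.14 and 11.32) in both replicates. JARID2 gene-end peaks lay at TWIST2 (fold 5.52) and CITED1 (fold 5.12) in HepG2 replicate 1, where 22.5% of coding genes had one. THLE-2 JARID2 replicate 1 had a peak inside TWIST2, and TWIST1 had no peak in any JARID2 list.

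Within 300 kb on either side and outside the genes, HDAC9 had 2 and 6 EZH2 peaks and 4 and 10 H3K27me3 peaks. HDAC4 had 1 and 2 EZH2 peaks and 21 and 31 H3K27me3 peaks, and HDAC8 had 1 and 1 and 10 and 32. The flanks of other coding genes were not counted. JARID2 peaks also lay in the flanks of the 3 genes. In HepG2 replicates 1 and 2, HDAC9 had 1 and 0 of them, HDAC4 3 and 0, and HDAC8 3 and 0. In THLE-2 the same flanks had 1 and 2 at HDAC9, 2 and 1 at HDAC4, and 0 and 0 at HDAC8. Over HDAC9, the stretch with no H3K27me3 peak ran 3.41 Mb in replicate 1 and 3.40 Mb in replicate 2, which ranked 69 of 46150 and 31 of 90438 gaps between peaks of those lists. HDAC9 is 916 kb long and belongs to a family chosen without such peaks, so a high rank follows in part from that choice. HDAC1, the lowest-ranked member in replicate 2, stood at 4031 of 90438, a rank to which the same limit applies. Gaps over other coding genes without H3K27me3 peaks were not ranked.

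**Figure D4:**
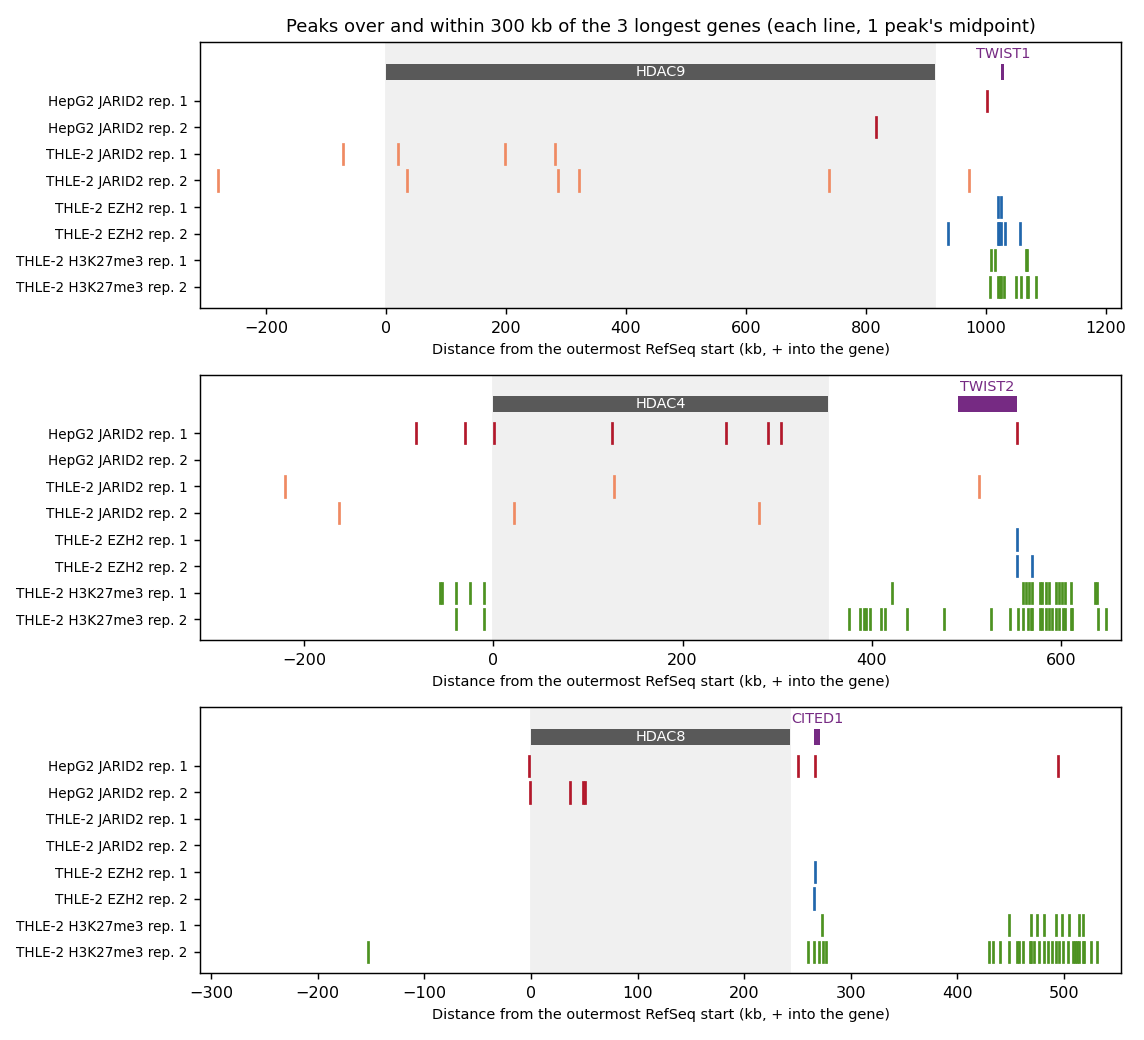
Peaks over HDAC9, HDAC4 and HDAC8 (dark bars, grey span) and the 300 kb on either side, 1 row per IP library and 1 line per peak midpoint, on an x axis of distance from the outermost RefSeq start in kb, positive into the gene; purple bars are TWIST1, TWIST2 and CITED1. JARID2 lines fall both inside the genes and beside them, while the EZH2 and H3K27me3 rows are empty inside the genes and hold most of their lines beyond the far ends of the genes.

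Other deacetylase genes and the genes of the complexes around the 8 enzymes were read in the same way, as 54 genes in 8 lists, all found in the annotation. Of these, 21 (38.9%) had a gene-end peak in HepG2 JARID2 replicate 1 and 0 in replicate 2, beside 22.5% and 0.716% of all coding genes. THLE-2 JARID2 had 0 and 5 (9.26%), beside 4.21% and 4.38%. EZH2 had 1 and 1 (1.85% each), beside 5.92% and 6.54%, and H3K27me3 had 2 (3.70%) and 4 (7.41%), beside 7.70% and 19.1%. None of the 54 had JARID2 gene-end peaks in both replicates of a line, a rule that 0.165% of coding genes met in HepG2 and 0.356% in THLE-2.

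All 3 class IIb and IV genes had a gene-end peak in HepG2 JARID2 replicate 1, the list where 22.5% of coding genes had one, and in no other list. HDAC11, the class IV enzyme, had it at its own start (fold 5.82). HDAC6, the tubulin deacetylase, had it at its far end over the start of ERAS, an embryonic RAS gene (fold 13.22), and HDAC10, a polyamine deacetylase, at its far end over the start of TUBGCP6, a gamma-tubulin complex gene (fold 6.21). Among NuRD subunit genes 5 of 9 had a peak in HepG2 replicate 1, among them MTA1 (fold 25.6) and MBD3 (fold 20.17). THLE-2 replicate 2 had peaks at 2 of them, MBD3 (fold 5.02) and GATAD2A (fold 7.79). Its remaining peaks among the 54 genes lay at ING1 of SIN3 (fold 5.43), MIDEAS of MiDAC (fold 8.47) and the sirtuin gene SIRT6 (fold 9.35). SIN3 subunit genes had 2 of 12 in HepG2 replicate 1, CoREST 2 of 6, MiDAC 1 of 2, sirtuins 2 of 7 and the MEF2 and 14-3-3 partners of class IIa 6 of 10. The 5 NCOR/SMRT genes, the complex of HDAC3, had no gene-end peak in any list.

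EZH2 or H3K27me3 gene-end peaks of both replicates were found at 3 of the 54 genes. MTA3, a NuRD subunit, had EZH2 peaks with folds of 5.7 and 4.23. It also had an H3K27me3 peak in replicate 2 (5.17) and a JARID2 peak in HepG2 replicate 1 (8.15). RCOR2, a CoREST subunit, had H3K27me3 peaks with folds of 6.76 and 5.74, and MEF2C, a transcription factor that class IIa enzymes repress, with folds of 9.66 and 9.7. SIRT6, a sirtuin deacetylase gene, had an H3K27me3 peak in replicate 2 alone (4.36), besides its JARID2 peak in THLE-2 replicate 2 (9.35). Over all coding genes 4.88% had EZH2 and 6.75% H3K27me3 gene-end peaks in both replicates, and neither the 0 of 8 nor these few genes were tested against those shares.

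The genes most like HDAC2 in pattern, with gene-end peaks in the same 3 JARID2 lists and no other, numbered 5. By Euclidean distance of log2 fold enrichment over those 3 libraries the nearest were SYCE2 (distance 1.16; folds 13.34 and 6.04 in HepG2 and 12.47 in THLE-2 replicate 2), DHX40 (1.24; 14.44, 7.19 and 18.82) and ZNF425 (1.27; 11.5, 6.5 and 6.74). All 3 had a lower fold than HDAC2 in both HepG2 libraries, but SYCE2 and DHX40 had a higher one in THLE-2 replicate 2, where HDAC2 had 10.04. HDAC8 shared its pattern, both HepG2 JARID2 lists and no other, with 20 genes, and the nearest over those 2 libraries were SEL1L3 (0.263; 10.67 and 8.16), VDAC1 (0.279; 11.38 and 9.63) and STIL (0.286; 10.5 and 8.26).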

How the data were processed

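Peaks of JARID2, EZH2 and H3K27me3 were read from 8 lists that the authors deposited, 1 per IP library, with replicates not pooled. Per the submitters' processing notes, cutadapt, Bowtie2, MACS 1.4.2 and the build GRCh38 were used. Per the file headers, MACS called each IP library against its input at a p cutoff of 1e-05. It kept no more than 1 tag at each position, and the larger of the IP and input libraries was scaled to the smaller. Per the file headers, each peak has a tag count, a score of -10 times the log10 of p, a fold enrichment (a ratio over local background) and a false discovery rate in percent. Read files and coverage were not used here.

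Peaks on chromosomes 1 to 22 and X were intersected with RefSeq genes of GRCh38.p14 (python 3.11.15, pandas 2.3.3, numpy 2.4.6, figures with matplotlib 3.10.9), and the overlap step was tested on simulated data. The annotation table lists no strand. Strand and starts came from the RefSeq promoter table, which has 7 of the 8 genes. A summit is the peak's start plus the offset that the deposited list gives, and may be off by 1 bp.

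The members and gene lists were chosen with earlier results of these data known. No test was run, because the family was picked from these peaks. The text names the 8 genes; list genes with gene-end peaks in both replicates of a group; the 3 genes most like a member with such peaks; genes that hold a member's peak; and FOXA2 and HOXD3. TWIST1, TWIST2, CITED1, FERD3L, HS3ST5, PCDH19 and list genes named with a peak in a single replicate were added after their values were seen. Alternatives changed the window, score threshold, overlap rule, list length, gene end and replicates.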

Additional observations from a re-analysis of the deposited data

How the results depend on the processing

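The EZH2 and H3K27me3 counts stayed at 0 of 8 genes under every alternative run, for gene ends and whole genes. The family was chosen for having no such peak, so only the 5 kb window, run for gene ends, could have changed these counts. With a MACS score of at least 100, the counts of genes with JARID2 peaks in both replicates became 0 at HepG2 gene ends, 0 over HepG2 whole genes and 0 over THLE-2 whole genes, against 2, 2 and 2. With the 2081 best-scoring peaks of each list they became 1, 1 and 1 (HDAC2, HDAC2 and HDAC9). A window of 1 kb left 1 gene at HepG2 gene ends, HDAC2. Where the peaks of both replicates had to overlap each other, an alternative chosen after seeing the data, the counts were 1, 1 and 0. These alternatives admit fewer peaks or genes by construction. Reading replicates singly gave 2 to 6 genes at HepG2 gene ends, 3 to 6 over HepG2 whole genes, 1 to 1 at THLE-2 gene ends and 3 to 4 over THLE-2 whole genes. A 5 kb window and the start end alone, run for gene ends, and a summit in the window, run for gene ends and whole genes, left the counts as reported. Median JARID2 peaks of 12 to 14 tags limit what a missing peak can show. No paired analysis was possible because the results come from no test.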

Other observations

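The stretch without EZH2 peaks over HDAC8 in THLE-2 ran 28.1 Mb on the X chromosome in both replicates, from the peak at CITED1 to one at PCDH19, a protocadherin gene, and ranked 1 of 2058 and 1 of 3614 gaps between EZH2 peaks. The family was chosen without EZH2 peaks, so each member lies in a gap longer than itself. A high rank follows in part from that choice and was not tested. Over HDAC9 the EZH2 gap was 10.7 Mb in replicate 1 and 2.51 Mb in replicate 2, and over HDAC1 it was 5.35 and 3.50 Mb. Over HDAC5 it was 2.92 and 3.89 Mb. Within each replicate the remaining members lay in shorter gaps. HDAC3 did so with 1.39 Mb in replicate 1 and 0.152 Mb in replicate 2, which ranked 2419 of 3614, and HDAC7 with 1.17 and 0.451 Mb.

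Around HDAC2, H3K27me3 peaks were missing over 2.92 Mb in replicate 1 and 1.61 Mb in replicate 2, which ranked 88 of 46150 and 122 of 90438 gaps. As over HDAC9, such ranks follow in part from the choice of a family without H3K27me3 peaks, and they were not tested. The nearest peaks beyond its start lay 138 kb away, over HS3ST5, a heparan sulfate sulfotransferase gene, in replicate 1 and 20.3 kb away in replicate 2. FERD3L, a transcription factor gene that lies beyond TWIST1 as seen from HDAC9, had an EZH2 peak (fold 4.55) and an H3K27me3 peak (fold 8.5) in replicate 2 and neither in replicate 1.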
